A study of Rattus norvegicus with 6 samples.

Results

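The earliest arrays after doxycycline (Dox) withdrawal compare cultured primary rat astrocytes that carry a mutant TDP-43 transgene with control astrocytes at day 3. These are 2 of the 6 arrays of the study, 1 per genotype. They give a value for 7885 of the 13337 genes named on the array, those detected on either day 3 array with a detection p under 0.05. The M337V array came from cells of GFAP-tTA/TRE-TDP43M337V rats and the tTA control array from cells of rats with GFAP-tTA alone, so all cells carry the tTA transgene. The other 4 arrays hold the same genotypes 4 and 6 days after withdrawal. With 1 array a side the day 3 differences have no replicate and no test. The labels do not give the age of the rats, the number of animals, or whether the arrays came from separate cultures, and if they did not, the spread between arrays may be technical.

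TDP-43, the product of Tardbp, is a nuclear RNA-binding protein that shapes splicing and RNA stability, and M337V is a substitution found in families with amyotrophic lateral sclerosis. The regulator tTA binds the TRE promoter only while Dox is absent, so taking Dox away switches the transgene on. The GFAP promoter, which drives tTA, is active in astrocytes and in some neural progenitors. Cultures of primary astrocytes can also hold microglia, oligodendrocyte precursors, ependymal cells and meningeal fibroblasts, and bulk RNA sums over all of them.

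Short stretches of promoter are shown here because the interferon and motile cilium genes described below were among those higher in M337V at day 3. The interferon-stimulated response element is bound by interferon-activated factors, and its letters, GAAA and GAAA with any 2 bases between them, were searched on both strands of the 250 bases before each RefSeq gene start (assembly GRCr8). It was found in 13 of the 21 interferon genes with a promoter sequence (61.9%) and in 172 of 6576 promoters of genes with a day 3 value (2.62%). Among genes at least 2-fold higher in M337V at day 3 it was found in 14 of 253 promoters (5.53%), and among those at least 2-fold lower in 5 of 137 (3.65%). The capitals below mark the match, which reads TTTC first where the element lies on the strand opposite to the gene.
Gbp2, chr2:234005681-234005720, gene on the plus strand: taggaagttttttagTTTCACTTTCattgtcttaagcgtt
Ifi27, chr6:128355213-128355252, gene on the plus strand: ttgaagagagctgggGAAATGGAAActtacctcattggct
Cxcl10, chr14:15988816-15988847, gene on the plus strand: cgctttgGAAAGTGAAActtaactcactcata
Irf7, chr1:205800068-205800107, gene on the minus strand: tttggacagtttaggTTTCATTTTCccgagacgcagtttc
Bst2, chr16:18255068-18255107, gene on the minus strand: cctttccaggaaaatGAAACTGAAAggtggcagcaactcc
Genes with a match lay on both sides at day 3. Of these 5 genes, Cxcl10, Ifi27 and Gbp2 were at least 2-fold higher in M337V, Irf7 was higher by less than 2-fold, and Bst2, which has a second match that overlaps the one shown, was lower by 0.75 on the log2 scale.

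RFX factors are regulators of cilium genes, and the half-site letters GTTNCCAT, chosen after the values were seen, were searched in the same windows. They were found in 2 of 11 cilium promoters (18.2%), in 21 of 253 promoters of genes at least 2-fold higher (8.3%), in 3 of 137 of those at least 2-fold lower (2.19%), and in 212 of all 6576 (3.22%). Both cilium matches are shown, with the half-site in capitals.
Tekt1, chr10:57479138-57479175, gene on the minus strand: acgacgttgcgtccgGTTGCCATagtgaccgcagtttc
Mlf1, chr2:153958425-153958462, gene on the plus strand: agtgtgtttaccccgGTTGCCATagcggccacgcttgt
Mlf1 holds a further match in the same window. The letters GAGGAAGT, a site of the myeloid factor PU.1, were found in 3 of 14 promoters of microglial genes (21.4%), those of Ctss, Cd53 and Vav1, and in 149 of 6576 overall (2.27%).

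The cells carried the transcripts of astrocytes at day 3. All 7 astrocyte markers on the array, among them Gfap, Aqp4, Slc1a3 and S100b, were detected in both genotypes. Tardbp itself had a log2 normalized signal of 11.08, 10.87 and 10.62 in tTA and of 11.20, 11.23 and 10.83 in M337V on days 3, 4 and 6. The day 3 difference was 0.11, smaller than the 0.40 between days 4 and 6 within M337V. The labels give neither the species of the transgene nor whether this rat probe binds its transcript, so it does not check the induction. Gfap read 14.91 in tTA and 15.04 in M337V at day 3.

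The 6 arrays detected 43.8% to 48.3% of the 22523 probes, and the M337V array of day 3 was the dimmest, with a mean signal of 377 before normalization against 468 to 554 on the others. Across the 7580 named genes detected on at least 3 of the 6 arrays, arrays of 1 genotype correlated at 0.979 to 0.992. The day 3 arrays of the 2 genotypes correlated at 0.966.

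At day 3, 324 of 7885 genes (4.11%) were at least 2-fold higher in M337V and 184 (2.33%) at least 2-fold lower, together 6.44%. Of those, 74 and 20 differed at least 4-fold and 23 and 3 at least 8-fold. The spread within a genotype was smaller. From day 4 to day 6, 0.444% of the genes moved at least 2-fold in tTA and 1.36% in M337V. The day 3 gap exceeded a gene's own larger within-genotype gap in 305 of the 324 higher genes (3.87% of all genes). It did so in 181 of the 184 lower ones (2.30%). Most were bound to pass, since they were chosen for a day 3 gap that few genes reached between days 4 and 6. These 2 counts are thus a description. The median absolute log2 difference was 0.28 between genotypes at day 3, 0.15 between days 4 and 6 in tTA and 0.17 in M337V. The 2 day 3 arrays themselves also stood apart from their day 4 partners, by a median of 0.18 in tTA and 0.17 in M337V, with 84 and 60 genes at least 2-fold apart (1.07% and 0.761%).

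**Figure D1:**
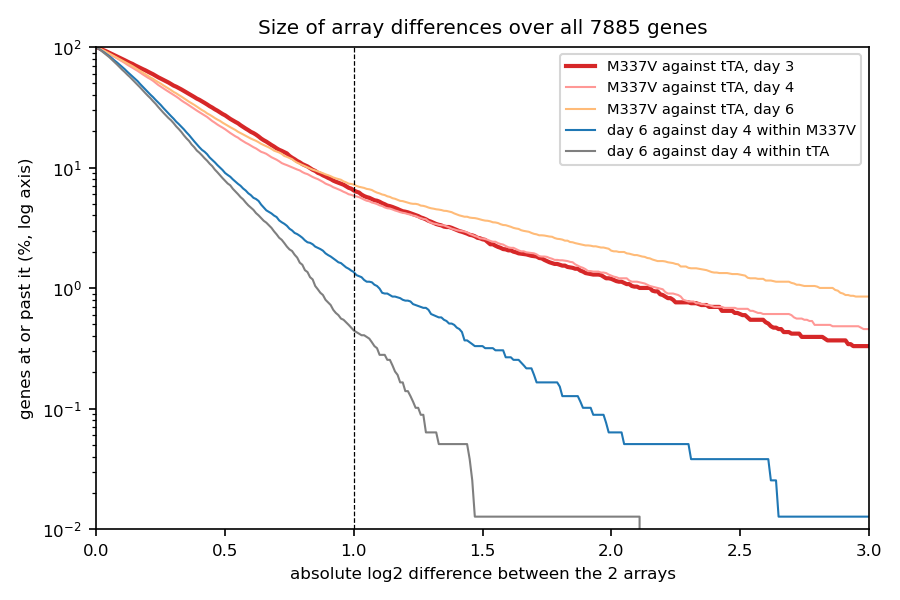
Share of the 7885 genes (vertical axis, percent, log scale) whose absolute log2 difference between 2 arrays reaches the value on the horizontal axis, with 2-fold as the dashed line. The genotype curves cross it at 6.44% (day 3), 5.82% (day 4) and 7.22% (day 6), the curves within a genotype at 1.36% (M337V) and 0.444% (tTA).

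The excess on the higher side depended on the scaling. With median scaling in place of quantile normalization the median gene lay 0.20 lower in M337V, and 47.3% of the genes at least 2-fold apart were higher, against 63.8% in the main values. In the authors' deposited values, which equal the log2 signal up to a scaling and a centring, 56.3% were higher. A dim array also limits what can be seen, since 581 genes were detected at day 3 on the M337V array alone and 678 on the tTA array alone. For those, the 2-fold counts take the signal as read, and a named gene is given below as "at least N-fold", the brighter signal over the lowest detected signal of the dimmer array where that is higher. With undetected values set at that limit, 274 genes were at least 2-fold higher and 159 lower, and for a list whose count changes there the count at the limit is given too.

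**Figure D2:**
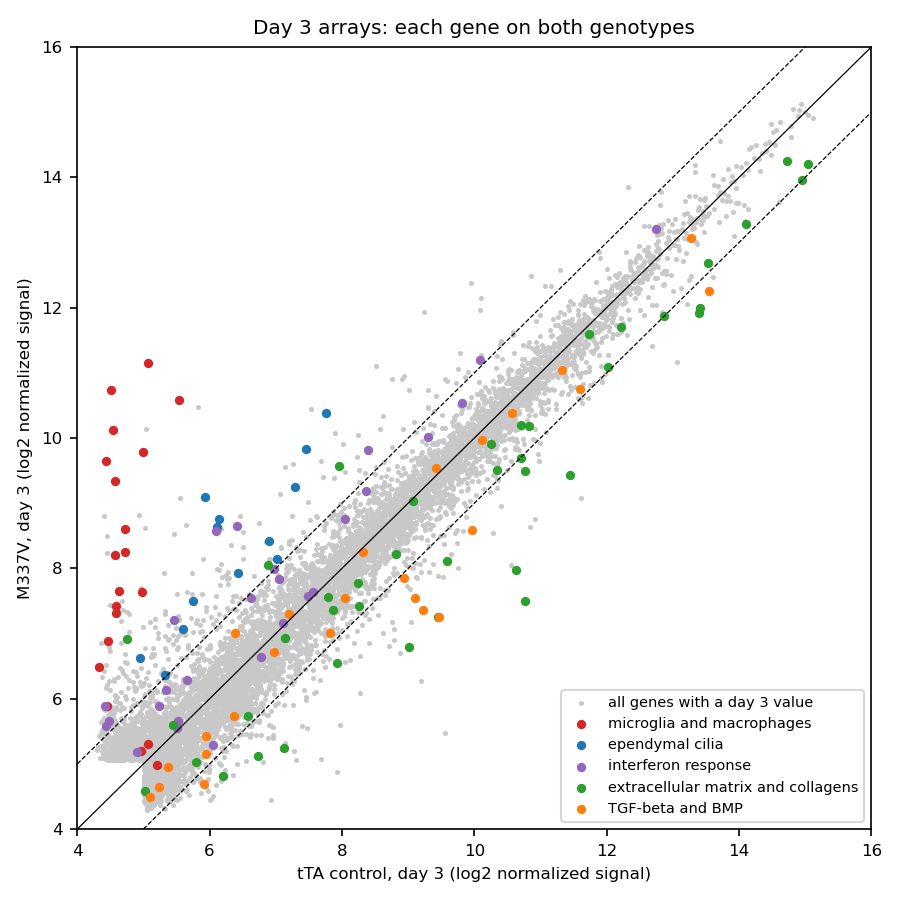
Each gene's log2 normalized signal at day 3 in tTA (horizontal axis) and M337V (vertical axis); the solid line marks equal signal and the dashed lines a 2-fold difference. Microglial genes (red) line the left edge near the tTA background, with Aif1 at 4.51 and 10.74, and matrix genes (green) lie mostly below the solid line, with Col8a1 at 10.77 and 7.50.

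Genes of microglia and macrophages, the resident phagocytes of the brain, differed most. Of 26 list members on the array, 20 had a day 3 value, and 17 of these were at least 2-fold higher in M337V and 0 lower, with a median log2 difference of 3.28. At the limit 16 were. Over all genes the shares were 4.11% and 2.33% and the median was -0.03. Of the 20, 16 were detected at day 3 on the M337V array alone. Those had a value only through the genotype in which they were brighter, so the filter in part sets the count and the median. Aif1, which encodes the actin-bundling protein Iba1, read 4.51, 4.76 and 6.87 in tTA and 10.74, 11.09 and 12.48 in M337V on days 3, 4 and 6. All 3 M337V arrays were above all 3 tTA arrays, and the day 3 signal was at least 53.1-fold higher. Ctss, the lysosomal protease cathepsin S, read 4.54, 4.77 and 5.92 in tTA and 10.13, 10.18 and 11.83 in M337V, at least 34.9-fold apart at day 3. Trem2, a lipid-sensing receptor, was at least 27.5-fold higher at day 3 and its signalling adaptor Tyrobp at least 3.69-fold. Fcer1g, the shared Fc receptor chain, was detected in both genotypes and was 67.6-fold higher, and Lcp1, a leukocyte actin bundler, 33.0-fold. The platelet and macrophage chemokine Pf4 was at least 20.1-fold higher.

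Not every microglial gene followed. Itgam, the integrin CD11b, read 5.21 in tTA and 4.99 in M337V at day 3, and the latter was not detected. Cx3cr1, the fractalkine receptor of resting microglia, read 4.97 and 5.20, the former not detected, and Vav1, a leukocyte signalling protein, 5.07 and 5.30. These 3 genes, close to background on both arrays, are the 3 of the 20 that were not at least 2-fold higher. In all, the M337V array detected 19 of the 26 members at day 3 and 22 on both later days, against 4, 4 and 9 in tTA. The summed normalized signal of the list was 11203 at day 3 and 13485 and 33852 later in M337V, against 695, 674 and 1035 in tTA. In these bulk samples, more cells of a type and more RNA per cell cannot be told apart.

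Complement, the cascade that tags debris and synapses for removal, was higher in 8 of 14 members and lower in 0. All genes gave shares of 4.11% and 2.33%, and the list median was 1.29. The 14 are those of 17 on the array with a day 3 value, and 4 of them were detected on the M337V array alone. The C1q chains led. C1qb read 4.43, 4.42 and 5.66 in tTA and 9.65, 10.44 and 12.24 in M337V and was at least 25.1-fold higher at day 3, and C1qa and C1qc at least 9.24-fold and 9.49-fold. These chains are also microglial markers. Without the 3 genes that both lists share, 5 of 11 were at least 2-fold higher and the median was 0.74. Cfb, a factor of the alternative pathway, read 5.47, 6.63 and 7.14 in tTA and 8.53, 9.77 and 9.85 in M337V, and Serping1, the C1 inhibitor, 8.01, 9.57 and 10.22 against 9.91, 10.85 and 11.54. Both genes were brighter on each later array of either genotype. All M337V arrays of Cfb were above all tTA arrays, while for Serping1 the M337V array of day 3 lay below the tTA array of day 6. C2 (1.29), Cfi (at least 2.24-fold) and properdin (Cfp, 1.67) were the other members at least 2-fold higher, Cfp by less than the 1.98 between days 4 and 6 within a genotype, and C4b (0.48), C1r (0.38) and C1s (0.56) were not.

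Antigen presentation was higher in 4 of 21 members and lower in 0, against 4.11% and 2.33% of all genes, with a median of 0.39. Ctss and RT1-DMb, a chain of the class II peptide-loading complex, made the largest differences, and RT1-DMb was at least 14.1-fold higher. The class I genes RT1-A1 (1.22) and RT1-S3 (1.08) followed. For both, the M337V array of day 3 lay below the tTA array of day 6. B2m, the class I light chain, differed by 0.26 and Tap1, a peptide transporter, by -0.04. Without Ctss, which is also on the microglial list, 3 of 20 members were at least 2-fold higher and the median was 0.36. The part of the microglial signal in the complement and antigen differences was not tested.

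Interferon-stimulated genes, which limit viral replication and shape immune signalling, were at least 2-fold higher in 9 of 27 members, 6 at the detection limit. The count lower was 0, against 4.11% higher and 2.33% lower over all genes, and the list median was 0.72. Mx1, an antiviral dynamin-like GTPase, read 6.10, 6.14 and 6.27 in tTA and 8.58, 8.71 and 8.99 in M337V. Its paralogue Mx2 read 6.42, 6.85 and 7.14 against 8.65, 9.01 and 9.24. In both genes all M337V arrays were above all tTA arrays, and the gaps of 2.48 and 2.23 at day 3 were close to those of 2.72 and 2.10 at day 6. Ifi27 (1.43), Gbp2 (1.10) and Rtp4 (1.02) were higher by less, Ifi44l and Ifit1, not detected in tTA, by at least 1.57-fold and 1.50-fold, and the factors Stat2 (0.93), Irf7 (0.80) and Irf1 (0.71) fell short of 2-fold. Irf9 (0.06), Ifih1 (0.08), a cytosolic RNA sensor, and Eif2ak2 (-0.14), the RNA-activated kinase PKR, lay near 0. No interferon list member is also on the microglial list, which was higher in 17 of 20 members at the same time; its part in the interferon difference was not tested.

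Chemokines and cytokines were higher in 8 of 25 members, 4 at the detection limit, and lower in 1. Among all genes the shares were 4.11% and 2.33%. The 25 are those of 38 on the array with a day 3 value, and 9 of them were detected on the M337V array alone. Cxcl10, an interferon-induced T cell attractant, read 5.46, 5.38 and 6.01 in tTA and 7.21, 7.67 and 7.55 in M337V. Pf4, which is also a microglial list member, and Cxcl16 (1.10) were higher, and Ccl3, not detected in tTA, was at least 2.41-fold higher. The other 4 counted were not detected in tTA either and have limits under 2-fold, Cxcl11 at least 1.84-fold, Il1b 1.82-fold, Cxcl2 1.70-fold and Ccl6 1.59-fold. Ccl3 and Ccl6 differed by less than they did between days 4 and 6 within a genotype, and Il15 (-1.02) was the member lower. The list did not move as a block, since Ccl7 (-0.84), Cxcl12 (-0.79), Il33 (-0.76), Cxcl1 (-0.75) and Ccl2 (-0.55) were below 0. The list median was 0.40 but -0.10 among the 15 members detected on both arrays. Of 10 NF-kappaB targets, Lcn2 was higher and Ptgs2, the prostaglandin synthase COX-2, lower (-1.13). Counts of 1 each way in a list of 10 say little about its function.

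**Figure D3:**
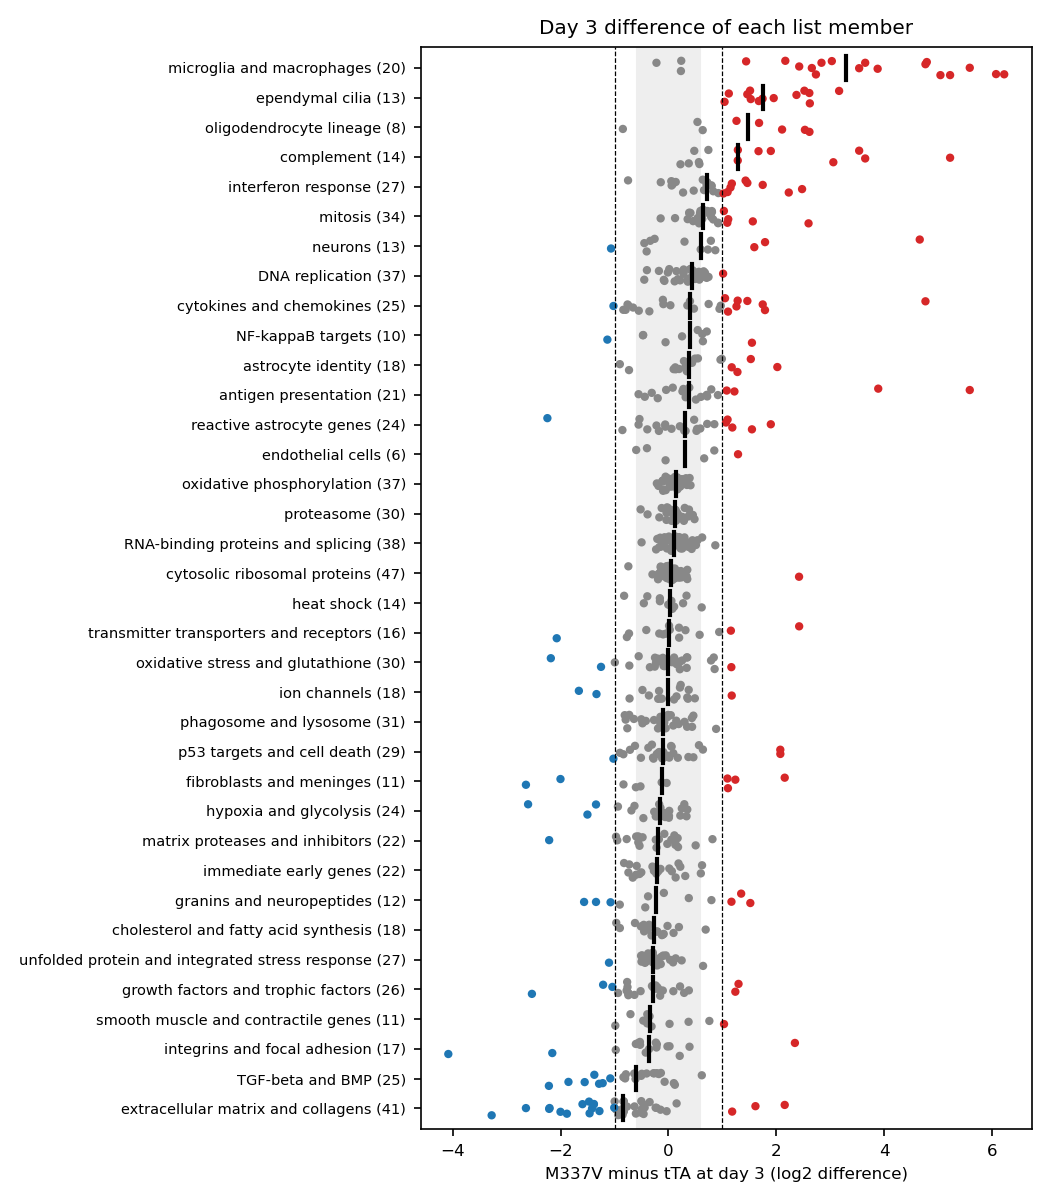
Log2 difference M337V minus tTA at day 3 for each member with a value of 36 gene lists (number of such members in brackets), with list medians as black bars and members at least 2-fold higher in red or lower in blue. The grey band spans 0.59 either way, the 95th percentile of absolute differences between days 4 and 6 in tTA; medians run from 3.28 (microglia and macrophages) to -0.83 (extracellular matrix and collagens).

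Motile cilium genes differed as a block. Ependymal cells line the ventricles and beat motile cilia. All 13 members of the list with a day 3 value were at least 2-fold higher in M337V, against 4.11% of all genes. The list median was 1.75. Cfap126, a protein of the cilium base, read 5.92, 8.10 and 8.48 in tTA and 9.09, 10.22 and 10.63 in M337V. Rsph1, a radial spoke head protein, read 6.15, 7.42 and 7.53 against 8.76, 9.31 and 9.38, and Tppp3, a tubulin-binding protein, 6.11, 7.68 and 7.87 against 8.63, 9.71 and 9.80. In these 3 genes every M337V array was above every tTA array, and the tTA array of day 3 was the lowest, so their gap was widest at day 3. Dynlrb2, a dynein light chain, was higher by 2.62, Mlf1, found in cilia, by 2.38, the tektin Tekt1 by 1.95 and the dynein chains Dnai2 and Dnai1 by 1.75 and 1.04. The summed signal of the 14 list members on the array was 1282 in tTA and 5627 in M337V at day 3, against 2668 and 10266 at day 6. All 3 ependymal markers on the array (Tekt1, Rsph1 and Tppp3) were detected in both genotypes.

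Genes of the oligodendrocyte lineage, the myelin-forming glia, were higher in 5 of 8 members and lower in 0. Their median was 1.47, and the shares of all genes were 4.11% higher and 2.33% lower. The 8 are those of 15 on the array with a day 3 value, and 3 of them were detected on the M337V array alone. Sox10, the transcription factor that defines the lineage, read 4.66, 5.06 and 4.86 in tTA and 7.20, 7.85 and 9.27 in M337V. Pdgfra, the growth factor receptor of their precursors, read 6.18, 6.18 and 6.48 against 7.87, 8.72 and 9.40. For both genes the M337V arrays were above all tTA arrays. Sox10, not detected in tTA at day 3, was at least 4.57-fold higher, and the gap of Pdgfra was smaller at day 3 than on the later days. Bcas1 (2.62), a gene of early myelinating cells, the myelin lipid enzyme Ugt8 (at least 4.29-fold) and Olig1 (1.26) were the others, with Bcas1 just under its largest within-genotype difference between days 4 and 6, 2.64. Cnp (0.64), a myelin protein, was under 2-fold and Cspg4 (NG2) lay at -0.85. Olig2 and Mog were not detected on either day 3 array.

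Neuronal genes were mixed, with 3 of 13 higher and 1 lower, against 4.11% and 2.33% of all genes. Gap43, a growth cone protein that glial precursors can also express, read 5.82, 5.93 and 6.42 in tTA and 10.48, 11.22 and 11.29 in M337V, 25.3-fold apart at day 3. Stmn3 (1.79), a microtubule regulator, and Gad1 (1.59), which makes GABA, were higher, while Uchl1 (-1.06), an abundant neuronal ubiquitin hydrolase, was lower. Nefl (-0.40) and Nefm (-0.34), structural proteins of neurons, were below 0, and Rbfox3 (NeuN) was not detected on either array.

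Genes of mature astrocytes were on the high side at day 3. Of 18 identity genes 4 were at least 2-fold higher and 0 lower, against 4.11% and 2.33% of all genes. The list median was 0.39 at day 3, 0.24 at day 4 and 0.15 at day 6. Gpr37l1, an orphan receptor of astrocytes, read 8.93, 10.22 and 10.56 in tTA and 10.95, 11.12 and 11.56 in M337V. Apoe, the main lipid carrier of the brain, read 12.32, 13.77 and 14.34 against 13.85, 14.27 and 14.69. For both, the tTA array of day 3 was the lowest of the 6, and the gap of 2.02 and 1.53 at day 3 was 0.90 and 0.50 at day 4. S100b (1.28) and the water channel Aqp4 (1.17) were also higher. The glutamate transporters Slc1a2 (0.32) and Slc1a3 (0.20), the gap junction protein Gja1 (0.29) and Aldoc (0.10) differed little, and the thyroid hormone carrier Slco1c1 (-0.90) and Fgfr3 (-0.73) were lower by less than 2-fold.

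Reactive astrocyte genes, those linked to injury or inflammation, were higher in 5 of 24 members and lower in 1. The list median was 0.31, and the shares of all genes were 4.11% and 2.33%. Lcn2, a secreted iron-siderophore binder, read 6.86, 7.82 and 8.18 in tTA and 8.41, 9.73 and 9.47 in M337V. The genotypes did not overlap over the 6 arrays, and the day 3 difference of 1.55 exceeded the 0.36 between days 4 and 6. Chi3l1, a secreted chitinase-like protein, read 7.25, 8.94 and 10.08 in tTA and 8.43, 9.62 and 10.42 in M337V. It was brighter on each later array of either genotype, the genotypes overlapped, and set against the mean of the 3 tTA arrays the M337V value of day 3 was lower by 0.32, not higher. Serping1 (1.90), Gbp2 (1.10) and ceruloplasmin (Cp, 1.07) were the others higher. Sphk1, which makes sphingosine 1-phosphate, was at least 4.74-fold lower. Vim (-0.06) and Cd44 (0.06), general markers of reactivity, lay near 0.

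**Figure D4:**
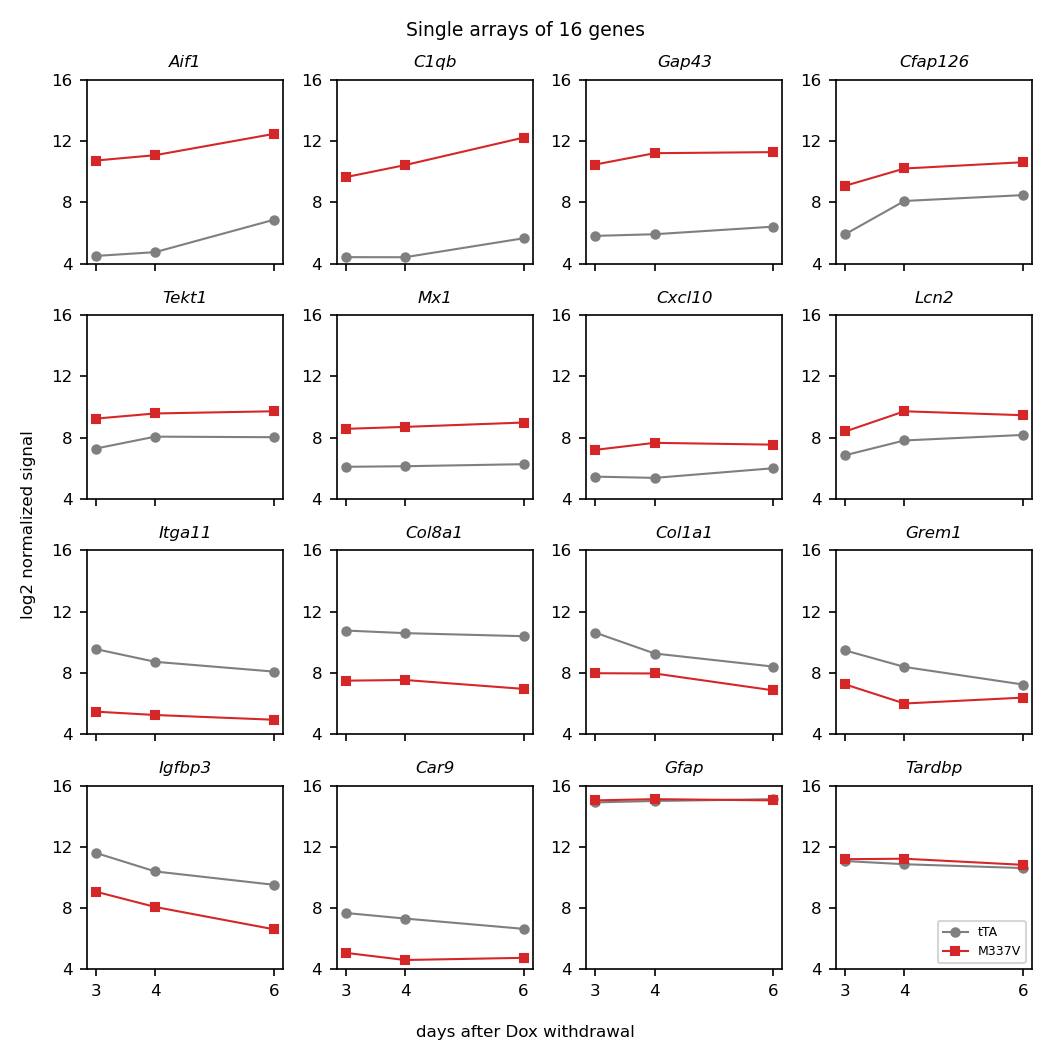
Log2 normalized signal of 16 genes (vertical axis) by days after Dox withdrawal (horizontal axis), with 1 array per point, grey circles for tTA and red squares for M337V. Aif1, C1qb, Gap43 and Mx1 were separated from day 3 on (Aif1 at 10.74 against 4.51), Itga11 and Col8a1 were separated the other way (Itga11 at 5.47 against 9.56), and the Gfap and Tardbp points lie together.

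Of 34 mitosis genes 5 were at least 2-fold higher and 0 lower, against 4.11% and 2.33% of all genes, and the median was 0.63. Aurkb, the chromosomal passenger kinase, read 8.51, 8.91 and 8.53 in tTA and 11.11, 11.77 and 12.14 in M337V. This gap of 2.60 stood apart from its list. Kif2c (1.56), a kinesin of chromosome segregation, Cdc20 (1.11), the activator of the anaphase complex, Kif15 (1.09) and the checkpoint kinase Bub1b (1.03, against 1.07 between days 4 and 6 within a genotype) were the others at least 2-fold higher. Cdk1 (0.92) and Plk1 (0.57), the main mitotic kinases, were higher by less. Of 37 DNA replication genes, 1 was at least 2-fold higher, a share below that of all genes, and 0 lower, and the median was 0.44. That gene, the chromatin assembly factor Chaf1b, was not detected in tTA and has a limit of at least 1.88-fold. The helicase subunits Mcm2 to Mcm7 lay between 0.36 and 0.71.

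Of the 36 lists, extracellular matrix had the most genes lower in M337V. Of 41 members 14 were at least 2-fold lower and 3 higher, against 2.33% and 4.11% of all genes, with a median of -0.83. Col8a1, a short-chain collagen, read 10.77, 10.60 and 10.40 in tTA and 7.50, 7.54 and 6.96 in M337V. Col1a1, a chain of fibrillar collagen I, read 10.63, 9.27 and 8.41 against 7.98, 7.97 and 6.86. The genotypes did not overlap in either gene, and the tTA array of day 3 was the brightest of the 6 for both. The chain partner Col1a2 differed by -0.83 and Col3a1 by -0.60, so the members of 1 collagen fibre differed by unequal amounts. Col4a1 (-1.47), a basement membrane collagen, and Col5a1 (-1.28) were lower.

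Other members of the list process or cross-link the fibres. The procollagen protease Adamts2 read 9.01, 8.37 and 7.49 in tTA and 6.79, 5.98 and 5.74 in M337V. The cross-linking enzymes Loxl2 (-2.21) and Lox (-1.46), the prolyl hydroxylase P4ha2 (-1.59), elastin (Eln, -1.88), and fibrillin (Fbn1, -1.38) were lower by at least 2-fold. Periostin (Postn), a secreted adhesion protein, was 4.01-fold lower at day 3. It read 11.44, 9.33 and 8.05 in tTA and 9.44, 7.81 and 5.93 in M337V. The M337V array of day 3 thus lay above the tTA arrays of days 4 and 6. The fibronectin gene Fn1 was lower by 0.84. The 3 members that were higher were Lum (at least 3.76-fold), a small proteoglycan, Efemp1 (1.61), a fibulin, and Vcan (1.18), a large proteoglycan.

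The day 3 values of fibroblast genes did not all point the same way, and of all genes 4.11% were higher and 2.33% lower. Of 11 members 4 were at least 2-fold higher, 3 at the detection limit (Lum, Igf2 at 1.24 and Ogn at 1.09), and 2 lower (Col1a1 and Postn). The fourth, Ptgds, was not detected in tTA, with a limit of at least 1.39-fold, and differed by less than between days 4 and 6 within a genotype, and the fibroblast proteoglycan Dcn was not detected on any array. The summed signal of the 17 list members on the array was 40963, 37319 and 32261 in tTA and 24182, 23314 and 19808 in M337V. These members include the collagens described above, and the part of fibroblasts in the matrix differences was not tested.

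Among integrins and focal adhesion proteins, which tie cells to the matrix, 2 of 17 were at least 2-fold lower and 1 higher. Of all genes, 2.33% were lower and 4.11% higher, and the count of 1 higher is near that share. Itga11, a collagen-binding integrin, had the largest negative difference of all genes, with 9.56, 8.73 and 8.09 in tTA and 5.47, 5.25 and 4.94 in M337V, 17.0-fold lower at day 3. Itga1 (-2.15), which also binds collagen, was lower, and the laminin-binding Itgb4 (2.35) higher. Itgb1 (-0.36), the partner chain of Itga11 and Itga1, differed by less than 2-fold.

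Signals of the TGF-beta family, which drive matrix production in many cells, were at least 2-fold lower in 7 of 25 members. At the detection limit 6 were, 0 were higher, and the median was -0.59. For all genes the shares were 2.33% lower and 4.11% higher. Among the ligands, Tgfb3 read 9.10, 8.17 and 7.82 in tTA and 7.54, 6.89 and 6.17 in M337V, while Tgfb2 (-0.84) and Tgfb1 (-0.26) were under 2-fold. The proteins that store latent TGF-beta, Ltbp1 (-1.38) and Ltbp2 (-1.29), were lower. Extracellular antagonists were among those lower by most. Grem1, a BMP antagonist, read 9.47, 8.39 and 7.24 against 7.25, 6.00 and 6.39, with the M337V array of day 3 level with the tTA array of day 6, and Fst (-1.85), an activin antagonist, was lower as well. Of the receptors, Bmpr1b, not detected in M337V, was at least 1.81-fold lower. The inhibitory Smad7 (-1.08) was lower and the BMP targets Id1 (-0.28), Id2 (-0.22) and Id3 (-0.14) lay nearer 0.

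Secreted growth factors and binding proteins split, with 3 of 26 lower and 2 higher, 2 and 1 at the detection limit. The shares of all genes were 2.33% lower and 4.11% higher. Igfbp3, which binds insulin-like growth factors, read 11.61, 10.40 and 9.53 in tTA and 9.08, 8.08 and 6.62 in M337V. Both genotypes dimmed with the days and the M337V array of day 3 was below all 3 tTA arrays. Angpt1 (-1.04) was lower and Igf2 (1.24) higher. Nrg1, not detected in M337V, was at least 1.89-fold lower, and the receptor Egfr, not detected in tTA, at least 1.92-fold higher. Vegfa (-0.20) lay near 0. Among 12 granins and neuropeptide precursors 3 were higher, Chgb (1.52), Scg3 (1.35) and Scg2 (1.17, against 1.44 between days 4 and 6 within a genotype), and 3 lower, Npvf (-1.56), Adm (-1.34) and Penk (-1.07).

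Of the 24 hypoxia and glycolysis genes 3 were lower and 0 higher, against 2.33% and 4.11% of all genes. Beside those shares, a count of 1 in a list as small as those that follow says little about a function. Car9, a membrane carbonic anhydrase, read 7.69, 7.32 and 6.65 in tTA and 5.08, 4.62 and 4.76 in M337V, 6.08-fold lower at day 3. Slc16a3, the lactate exporter, was lower by 1.50 and Adm by 1.34, while the glycolytic enzymes Gapdh (0.01), Pgk1 (0.01) and Ldha (-0.26) were nearly level. Among 16 transmitter transporters and receptors Slc1a1, the neuronal glutamate transporter (2.42), and Slc38a3 (1.16), a glutamine carrier, were higher and the serotonin receptor Htr7 (-2.07) lower. Among 18 ion channels, Kcnk2 (-1.66) and Cacna2d1 (-1.33) were lower and Aqp4 higher. Among 30 oxidative stress and glutathione genes the transferases Mgst2 (-2.18) and Gstm2 (-1.25) were lower and Gsta4 (1.17) higher. Of 22 matrix proteases and inhibitors Adamts2 was the 1 lower and 0 were higher, of 11 smooth muscle genes Actg2 (1.03), a smooth muscle actin, was the 1 higher, and of 6 endothelial genes Vwf, a blood clotting protein, was the 1 counted higher, not detected in tTA and with a limit of at least 1.80-fold.

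Many housekeeping and stress functions had few or 0 members at least 2-fold apart. There were 0 in either direction among 37 oxidative phosphorylation genes, 30 proteasome subunits, 38 RNA-binding and splicing proteins, 31 lysosomal genes, 14 heat shock genes, 18 genes of cholesterol and fatty acid synthesis and 22 immediate early genes. Over all genes 6.44% were that far apart, so 0 in the smaller of these lists is near that share. The largest differences of the heat shock, cholesterol and immediate early lists were Cryab (-0.82), Scd (-0.97) and Dusp1 (-0.82). The medians of the oxidative phosphorylation, proteasome, RNA-binding and heat shock lists were positive, between 0.03 and 0.14. They turned negative in the deposited values and under median scaling, where that of heat shock was -0.07 and -0.20. Of 47 ribosomal proteins only Rps9 was past 2-fold, with 9.95, 9.25 and 9.35 in tTA and 12.38, 11.97 and 11.84 in M337V, and the others lay between -0.74 and 0.35. Of 27 genes of the unfolded protein and integrated stress responses, 1 was lower (Eif2ak3, the sensor kinase PERK, -1.10), and the median of -0.28 kept its sign in 13 of 13 settings. The chaperone Hspa5 (BiP) differed by -0.21 and Ddit3 (CHOP) by -0.50. Of 29 p53 targets and cell death genes, Casp1 (2.08), an inflammatory caspase, and Bcl2a1 (at least 2.84-fold), a leukocyte survival protein, were higher. The cell cycle inhibitor Cdkn1a (-1.02) was lower. In the ribosomal, stress response and p53 lists such counts of 1 or 2 are near the shares of all genes, 4.11% higher and 2.33% lower.

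Several of the genes furthest apart belonged to no list. Ggcx, the carboxylase that uses vitamin K, read 5.04, 4.85 and 4.58 in tTA and 10.14, 9.89 and 9.78 in M337V, 34.2-fold apart at day 3, and at least 29.3-fold and 28.2-fold on days 4 and 6, when tTA did not detect it. Pnlip, pancreatic lipase, was at least 11.3-fold higher. On the lower side, Cpxm2, a secreted carboxypeptidase-like protein, read 9.19, 8.60 and 7.65 against 6.28, 5.40 and 5.02, and Rnf113a2 was at least 7.31-fold lower, with 7.93, 7.76 and 7.69 against 4.88, 4.52 and 5.06. The enzyme Car3, a carbonic anhydrase, read 10.55, 7.96 and 6.91 in tTA and 8.05, 6.35 and 5.51 in M337V, so that the M337V array of day 3 lay above the tTA array of day 4. The axon guidance ligand Slit3 (at least 3.64-fold) and Slitrk6 (-2.37), a synaptic adhesion protein, were also lower.

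The genes apart at day 3 were set against the arrays the day 3 comparison did not use. A limma fit of the 4 arrays of days 4 and 6, with the day as a block and Benjamini-Hochberg adjustment at 0.05, called 578 of 7834 genes higher in M337V (7.38%) and 439 lower (5.60%). Among the 7386 genes with a day 3 value that it tested, 7.45% were called higher and 5.86% lower. Of the genes at least 2-fold higher at day 3, it tested 320 and called 276 higher and 0 lower. Of those at least 2-fold lower, it tested 173 and called 112 lower and 0 higher. Part of these genes passed the detection filters only through the genotype in which they are brighter. Among genes detected on both day 3 arrays the fit called 5.97% higher and 6.26% lower of 6586, and 176 of 201 genes at least 2-fold higher at day 3 and 105 of 146 at least 2-fold lower were called the same way. If all arrays of a genotype came from 1 culture, the later days share whatever else set the cultures apart, and that and the transgene cannot be told apart. Without the day block the fit called 395 and 270 genes, and with 1 array left out in turn 87 to 386 and 20 to 169, fewest without the tTA array of day 4.

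Named genes of each group passed this fit. Fcer1g was higher by 5.55 ± 0.16 (SE, limma adjusted p = 0.0009), Mx1 by 2.64 ± 0.12 (limma adjusted p = 0.0024) and Cfap126 by 2.13 ± 0.12 (limma adjusted p = 0.0032). Itga11 was lower, at -3.31 ± 0.14 (limma adjusted p = 0.0019), and Col8a1 at -3.25 ± 0.15 (limma adjusted p = 0.0022). Lcn2 passed at 1.60 ± 0.19 (limma adjusted p = 0.012), and Chi3l1 (0.51 ± 0.14, limma adjusted p = 0.088), Grem1 (-1.62 ± 0.37, limma adjusted p = 0.056) and Slit3 (-1.44 ± 0.34, limma adjusted p = 0.058) did not. By list, and over members detected on both day 3 arrays, the fit called 12 of 12 cilium genes higher, 4 of 5 oligodendrocyte genes, 4 of 10 complement genes, 11 of 23 interferon genes and 15 of 34 mitosis genes, with 0 called lower in each. It called 21 of 37 matrix genes lower and 2 higher, and 9 of 21 TGF-beta and BMP genes lower and 0 higher. The astrocyte lists were split, with 3 identity genes higher and 2 lower of 18, and 5 reactive genes higher and 4 lower of 22. Only 3 microglial members were detected on both arrays, 2 of them called higher.

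In size, the day 3 differences were compared with those of the later days. Among the 324 higher genes the median log2 difference was 1.45 at day 3, 1.45 at day 4 and 1.60 at day 6, with 315 of the same sign on both later days and 222 at least 2-fold on both. Among the 184 lower genes the median was -1.25 at day 3 and -0.95 and -0.93 later, with 163 of the same sign on both later days and 63 at least 2-fold on both. Since both sets were chosen at day 3, a smaller later median is not by itself a result. All 3 M337V arrays lay above all 3 tTA arrays for 297 of the 324 higher genes, and below for 150 of the 184 lower genes. Over all 7885 genes the shares were 14.0% above and 19.5% below. The day 3 arrays that chose these genes are among the 6. Part of the separation thus follows from the choice, and the counts are a description.

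**Figure D5:**
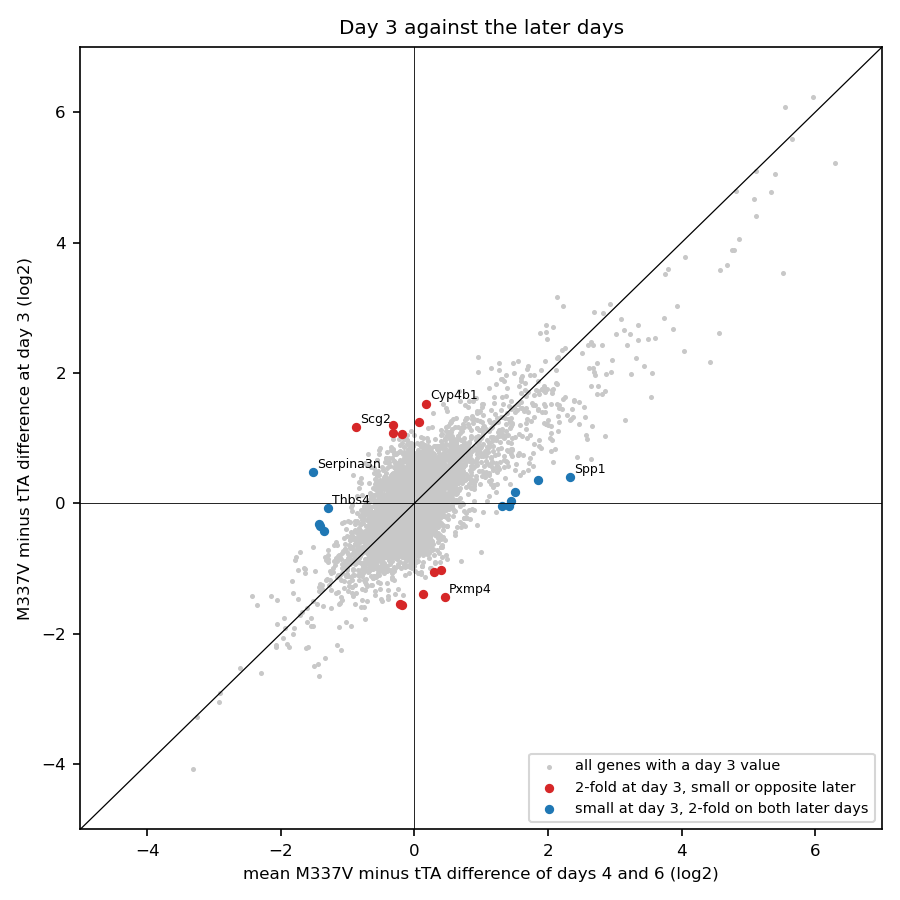
Log2 difference M337V minus tTA at day 3 (vertical axis) against the mean of the differences of days 4 and 6 (horizontal axis) for 7885 genes, with equal differences on the diagonal. Genes named for a difference at day 3 alone are red (Cyp4b1 at 1.53) and those named for the later days alone are blue (Spp1 at 0.40 on day 3).

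Whether the day 3 difference of a gene was unlike its mean over days 4 and 6 was tested with a limma interaction term over all 6 arrays. It called 0 of 7580 genes (0%) in either direction, with 630 genes at an unadjusted p under 0.05 (8.31%) and a smallest limma adjusted p of 0.58. The fit has 1 residual degree of freedom. In the deposited values, with no background correction or with a variance trend, the test called 1 to 21 genes in the positive direction. It called 3 to 25 in the negative direction there, and 0 in all other settings, as listed in the closing section. The values of 38 genes at least 2-fold apart at day 3 alone, 15 higher and 23 lower, are thus a description. In 25 of these the probe was detected on 1 of the 2 day 3 arrays, and in 24 the tTA array of day 3 was further from its later days than the M337V array was.

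Scg2, a secretogranin, read 6.40, 7.60 and 9.04 in tTA and 7.57, 7.52 and 7.38 in M337V, so the M337V arrays were level while the tTA arrays brightened past them. Cyp4b1, a cytochrome P450, read 7.49, 8.51 and 8.72 against 9.02, 8.84 and 8.75, with a gap of 1.53 at day 3 and of 0.03 at day 6. In both genes the day 3 gap came with a low tTA value of day 3. Col15a1, a basement membrane collagen, read 6.20 in tTA at day 3 and between 4.51 and 4.82 on the other 5 arrays.

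A set of 18 genes was within 0.5 of 0 at day 3 and at least 2-fold apart on both later days, 13 higher and 5 lower. Spp1, the cytokine osteopontin, read 10.72, 8.90 and 8.12 in tTA and 11.12, 10.56 and 11.13 in M337V, so its gap of 0.40 at day 3 had become 3.01 by day 6 as the tTA arrays dimmed. Slc2a5, a fructose carrier found in microglia, and Irf5, a myeloid interferon factor, belonged to the same set. Serpina3n, a reactive astrocyte protease inhibitor, read 7.29, 8.18 and 8.17 in tTA and 7.77, 6.81 and 6.50 in M337V, and was the gene with the smallest interaction p on the positive side (limma adjusted p = 0.58). Thbs4, a thrombospondin, read 8.79, 10.09 and 11.06 against 8.71, 8.91 and 9.65, level at day 3 and lower in M337V from day 4 on.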

How the data were processed

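Per the labels' protocols, RNA from primary astrocytes was isolated on columns, labelled as biotin-aRNA and read on Illumina beadchips. Per the file headers, the deposited table gives a mean bead signal intensity per probe and array, not normalized, and a detection p-value against control beads. Per the submitters' processing notes the software was GenomeStudio (version not given in the sources used here). The authors' deposited value table is log2; between arrays it equals the log2 signal less each array's upper quartile (within 0.00215), its column medians run from -0.15 to 0.07, and its centring is unknown.

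Of 22523 probes 13793 have 1 symbol and 8730 are unnamed here (none or several symbols); 13752 Entrez identifiers matched NCBI's table. With limma 3.58.1 (R 4.3.3), normexp background correction from the detection p-values, an offset of 16, quantile normalization and log2 were applied to all 6 arrays, and each gene is its brightest kept probe. A signed difference is M337V minus tTA. A gene was counted at 2-fold or more, with the larger difference between days 4 and 6 within a genotype as its yardstick. lmFit and eBayes tested genotype on days 4 and 6 (genes detected on at least 2 of 4 arrays) and the day 3 interaction (at least 3 of 6), the day as a block, with 1 residual degree of freedom each. Both were also run on simulated data drawn from their own fitted variances with independent noise, which does not check them for these arrays. Arrays of the same day, paired per the labels, deviated together with correlations of 0.44, 0.08 and 0.43. Number and brightness of the arrays limit the precision, and at most 48.3% of the probes were detected on any.

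The day 3 pair, the 36 gene lists (1006 of 1211 entries matched) and the rules were chosen with earlier results of these data known. Named genes are Tardbp, Gfap, Lcn2 and Chi3l1; the 12 largest differences each way past the yardstick; per list the 5 largest and 2 smallest; and up to 6 each way by interaction p, at day 3 alone and on the later days alone. Other list members are named to complete a count or a complex and were chosen after their values were seen. Normalizations, filters, variance models and left-out arrays were the alternatives.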

Additional observations from a re-analysis of the deposited data

Results flagged for a closer look

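Probes with no single gene symbol hold day 3 differences as well. Of 3025 such probes detected on either day 3 array, 95 were at least 2-fold higher in M337V and 69 at least 2-fold lower, and no gene is named for them here.

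For 7 genes at least 2-fold apart at day 3, the difference as read had the opposite sign on both later days, in part by little or between undetected probes. Scg2 was higher by 1.17 and Bard1 by 1.21 at day 3, and Wdr81 by 1.08. Pxmp4 (-1.44), Col15a1 (-1.39), Hycc2 (-1.06) and Sp4 (-1.06) were lower. The test of day 3 against the later days called none of those it included (smallest limma adjusted p of all genes 0.58, with 630 of 7580 at an unadjusted p under 0.05); for Col15a1, Sp4 and Wdr81 the difference was not tested. Scg2 was detected on both day 3 arrays and the other 6 on 1 of them, so their values are readings against background. At day 4 the difference was 0.01 in Col15a1 and Hycc2 and -0.02 in Wdr81, and Col15a1 was detected on no array of the later days.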

How the results depend on the processing

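Main counts at day 3 were 324 higher and 184 lower. They were 107 and 83 in the deposited values (56.3% higher against 63.8%), 109 and 57 with no background correction, 251 and 280 with median scaling (47.3% higher), 332 and 143 with cyclic loess, 179 and 92 with an offset of 50, 201 and 146 for genes detected on both arrays, and 314 to 321 and 179 to 180 with the arrays of day 4 or 6 left out of the normalization. Alternatives chosen after seeing the data set the M337V array of day 3 against the mean of the tTA arrays (268 and 110) or the mean of the M337V arrays against the tTA array of day 3 (407 and 219). Under the former, Chi3l1 read -0.32 and Scg2 -0.11. Of 116 named genes at least 2-fold apart, these 2 were the ones whose sign turned in any setting.

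The day 3 interaction called 0 and 0 genes. It called 1 and 3 in the deposited values, 6 and 7 with no background correction, and 21 and 25 with a variance trend. It called 0 in all other settings, with no day block or with any array of day 4 or 6 left out among them. The genotype fit of days 4 and 6 (578 higher, 439 lower) gave 708 and 1145 in the deposited values and 876 and 956 with no background correction. It gave 752 and 193 with median scaling, 541 and 255 with cyclic loess, and 804 and 851 with an offset of 50. For genes detected on all 4 arrays it gave 540 and 741, with a variance trend 963 and 1053, and with no day block 395 and 270. Leaving out 1 array at a time, without the block, gave 87 higher and 20 lower (tTA day 4), 120 and 39 (tTA day 6), 386 and 169 (M337V day 4) and 273 and 87 (M337V day 6). The causes were not tested.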

Other observations

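The genes here belong to no list and were picked after their values were seen, so they support no statement on a group. Of genes known from motile cilia, Spag6l was higher in M337V at day 3 by 3.02, Cfap52 by 1.97, Enkur by 1.97, Deup1 by 1.90 and Zmynd10 by 1.69, and Ccno, a regulator of multiciliated cells, by 1.54. The limit for Capsl, which tTA did not detect, was at least 6.46-fold, and for Odad1 at least 4.06-fold. Fcgr3a and Ptpn6, known from leukocytes and not detected in tTA either, had limits of at least 9.36-fold and 5.61-fold. On the lower side, Pmepa1 and Snai1, known targets of TGF-beta, differed by -1.91 and -1.71, Pcolce, an enhancer of procollagen processing, by -2.18 and the follistatin-like Fstl3 by -1.55.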
